A study of Homo sapiens with 9 samples.

Results

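Genes of the neutrophil primary granule were followed across 3 groups of blood-forming cells made from H1, an established human embryonic stem cell line. The members were 9 rows of the raw count table, of 21229 genes in all, chosen by symbol: MPO, ELANE, PRTN3, AZU1, CTSG, LYZ, CFD, MS4A3 and SERPINB10. All 9 passed the filter on low counts. The groups, with 3 libraries each, were CD90+ cells that overexpress GATA2, CD90+ cells with the control genotype, and CD38+ cells with the control genotype. All were differentiated from the same stem cell line, so every group is a model from 1 genetic background. The sources used here do not say how GATA2 was overexpressed or whether replicates were grown as separate cultures. Differences between cultures and effects of GATA2 therefore cannot be told apart, and the p-values measure only the spread between these samples, which may be technical.

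Primary granules, also called azurophil granules, are the first granules that a developing neutrophil builds, at the promyelocyte stage, and their contents are made early and stored. Most of their mRNAs appear in granulocyte-monocyte progenitors and promyelocytes and are shut off as the cell goes on to make secondary and then tertiary granules. Myeloperoxidase turns hydrogen peroxide and chloride into hypochlorous acid, the serine proteases ELANE, PRTN3 and CTSG digest microbial and host proteins, AZU1 is a relative of these proteases that has lost catalysis and acts as an antimicrobial and chemotactic protein, and lysozyme cleaves the bacterial cell wall. Several of these genes are not limited to neutrophils: LYZ is also abundant in monocytes and macrophages, CTSG in mast cells, and CFD (adipsin) in fat.

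AZU1 (ENSG00000172232.9, 825097 to 832018), PRTN3 (ENSG00000196415.9, 840960 to 848175), ELANE (ENSG00000197561.6, 851014 to 856247) and CFD (ENSG00000197766.7, 859643 to 863630) lie side by side on the plus strand of chromosome 19, within 38534 bases (GENCODE release 29, GRCh38). The other members stand apart from these: MPO (ENSG00000005381.7) on the minus strand of chromosome 17 at 58269856 to 58280935, CTSG (ENSG00000100448.3) on the minus strand of chromosome 14 at 24573522 to 24576260, LYZ (ENSG00000090382.6) on the plus strand of chromosome 12 at 69348341 to 69354234, MS4A3 (ENSG00000149516.13) on the plus strand of chromosome 11 at 60056587 to 60071128, and SERPINB10 (ENSG00000242550.5) on the plus strand of chromosome 18 at 63897174 to 63936111. The counts are of reads over each gene's exons. LYZ overlaps an antisense gene and SERPINB10 overlaps SERPINB2 on the same strand, so reads of these pairs may be shared, and how they were assigned is not given in the sources used here.

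The sequence just upstream of the RefSeq start is shown for PRTN3, CTSG and MS4A3, which had the largest differences between overexpressing and control CD90+ cells among the members. AZU1, the close neighbour and relative of PRTN3, was not called in that comparison. Without CD90+ control replicate 2 it was higher there (log2 fold change 2.46, edgeR adjusted p = 1.06e-07). Its sequence is shown as well. Each runs 5′ to 3′ on the gene's own strand, from 250 bases before the RefSeq start (GRCh38.p14) to the base before the gene's own GENCODE exon. The AZU1 stretch lies inside the GENCODE gene, which starts at 825097, upstream of the RefSeq start. Capitals mark GATAA (a core of GATA factor sites), GAGGAA (a core of PU.1 sites) or TGTGGT (a core of RUNX sites) on either strand.
PRTN3, chr19:840749-840959, plus strand: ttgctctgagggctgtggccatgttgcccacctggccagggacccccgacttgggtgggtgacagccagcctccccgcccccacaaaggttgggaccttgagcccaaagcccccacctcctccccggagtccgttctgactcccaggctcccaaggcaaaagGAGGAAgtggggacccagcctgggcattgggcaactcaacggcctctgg
AZU1, chr19:827587-827835, plus strand: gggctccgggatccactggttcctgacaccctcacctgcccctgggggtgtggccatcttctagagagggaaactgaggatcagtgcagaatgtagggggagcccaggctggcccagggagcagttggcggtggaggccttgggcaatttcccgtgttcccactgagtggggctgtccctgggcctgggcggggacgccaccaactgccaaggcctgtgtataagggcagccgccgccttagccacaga
CTSG, chr14:24576261-24576500, minus strand: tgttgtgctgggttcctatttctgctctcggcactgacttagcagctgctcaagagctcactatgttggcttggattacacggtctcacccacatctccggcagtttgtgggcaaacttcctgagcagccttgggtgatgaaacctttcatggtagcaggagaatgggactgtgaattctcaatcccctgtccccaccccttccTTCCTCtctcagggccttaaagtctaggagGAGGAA
MS4A3, chr11:60056415-60056586, plus strand: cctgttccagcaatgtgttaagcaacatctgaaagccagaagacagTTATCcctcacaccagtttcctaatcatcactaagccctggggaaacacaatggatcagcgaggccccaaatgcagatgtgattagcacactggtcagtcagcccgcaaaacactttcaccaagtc

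RefSeq windows were matched for 5 of the 9 members (PRTN3, AZU1, CTSG, CFD and MS4A3). Over the full 250 bases, GATAA was found in 1 of the 5, with 3 matches in MS4A3, and in 21% of 27305 promoters. The first of these MS4A3 matches stands in the printed stretch, and the other matches lie in the gene's GENCODE exon. GAGGAA was found in 2 of the 5, with 1 match in PRTN3 and 2 in CTSG, and in 23.4% of all promoters, while TGTGGT was found in none of the 5 and in 10.9% of all promoters. A MYB core, AACNG, occurred in 4 of the 5 against 70.6% of all promoters, and a C/EBP pattern, TTNNGNAA, in 3 of the 5 against 33.6%, both counted on either strand. These are matches of letters in a short window and are not measured binding sites. AZU1 and PRTN3, adjacent genes for related proteins, differed in the GAGGAA match and shared AACNG and TTNNGNAA.

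Library depth, as reads counted over all genes, was 37500192 to 39582736 in the GATA2 overexpression CD90+ libraries, 42577569 to 47261093 in CD90+ controls and 42695005 to 45561088 in CD38+ controls. Levels are CPM (a gene's reads as a share of its library, scaled by TMM factors), with mean ± SD and n = 3 per group. GATA2 itself was at 376 ± 12.8 CPM in overexpressing CD90+ cells, 87.3 ± 1.93 CPM in CD90+ controls and 569 ± 16.3 CPM in CD38+ controls, so its level in the overexpressing cells exceeded that of CD90+ controls and not that of CD38+ controls. Whether an introduced copy of GATA2 adds reads to this row was not tested. THY1, which encodes CD90, was low in the cells labelled CD90+, at 3.06 ± 0.439 CPM in overexpressing and 4.43 ± 0.632 CPM in control CD90+ cells, and had 0 counts in CD38+ controls, which allows up to 0.0261 CPM over that group (3 counts, counting error only). CD38 was at 2.23 ± 0.514, 4.37 ± 0.382 and 122 ± 2.40 CPM in overexpressing CD90+, control CD90+ and control CD38+ cells. These are bulk libraries, in which fewer cells of a type and less RNA per cell cannot be told apart.

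Primary granule genes followed no common course over the groups, and fell into patterns that set GATA2-overexpressing cells beside either control group. MPO and SERPINB10 were highest in overexpressing CD90+ cells, lower in CD90+ controls and lowest in CD38+ controls. CTSG and MS4A3 were high in overexpressing CD90+ cells and in CD38+ controls, and several-fold lower in CD90+ controls; PRTN3 took the same order of CD90+ groups with unequal replicates. LYZ was highest by far in CD38+ controls. Together the 9 genes took 0.238 ± 0.0129% of raw counts in overexpressing CD90+ cells, 0.162 ± 0.00316% in CD90+ controls and 0.234 ± 0.00263% in CD38+ controls. In CPM scaled by TMM factors they summed to 2313 to 2580, 1372 to 1417 and 2651 to 2710 in libraries of these groups, without overlap. The raw shares of overexpressing CD90+ and CD38+ controls were nearly equal, and the scaled sums were higher in CD38+ controls. These totals were made of different genes: MPO held 71.8%, 69.8% and 27.6% of the members' counts, and LYZ 12.7%, 25.8% and 60.7%, in overexpressing CD90+, control CD90+ and control CD38+ cells.

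**Figure D1:**
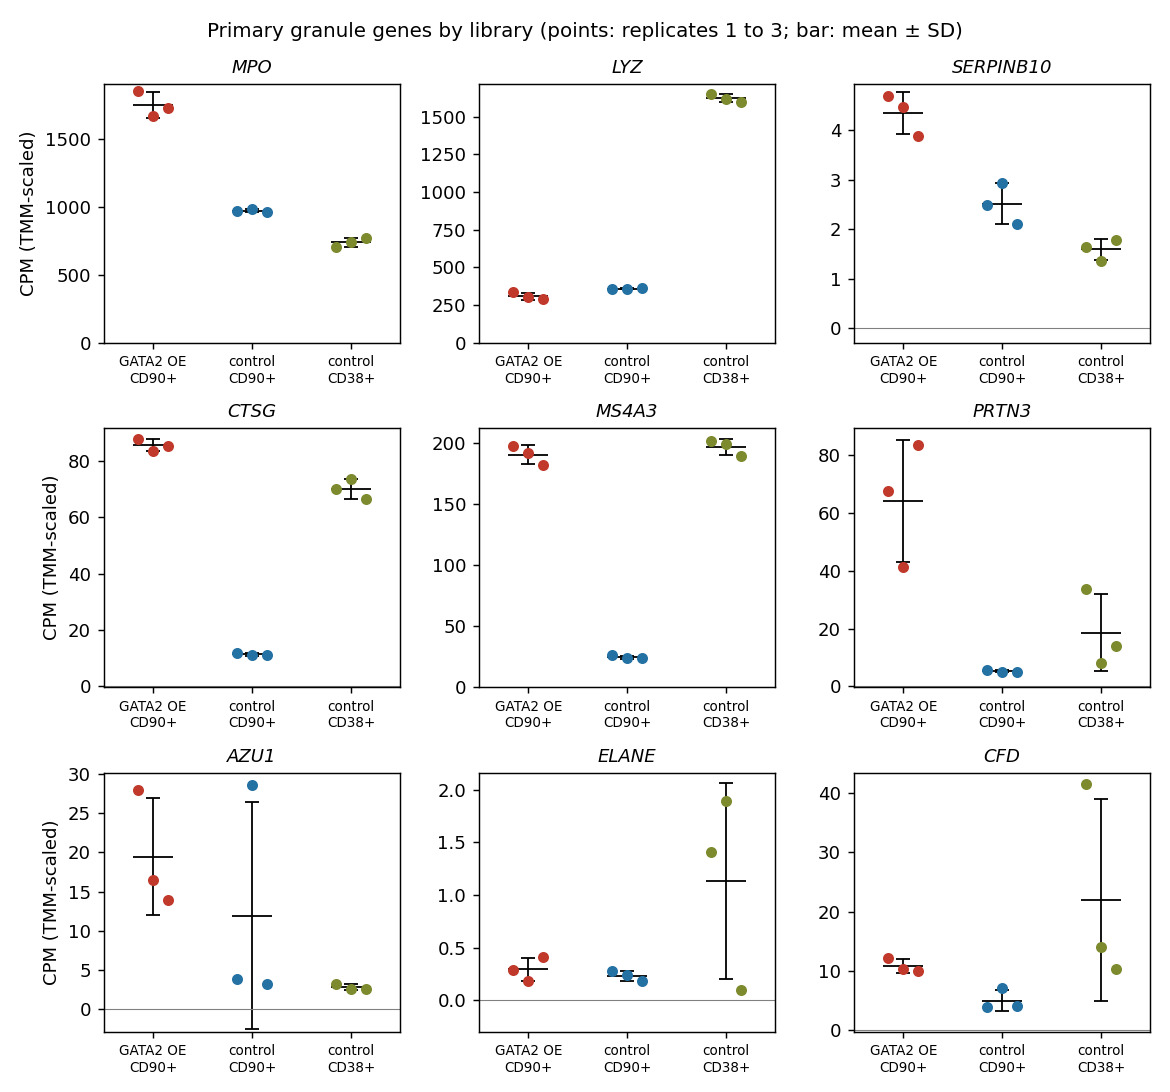
Level of each of the 9 primary granule genes in every library, in CPM scaled by TMM factors, on linear axes that differ between panels. Points are replicates 1 to 3 from left to right within GATA2 overexpression CD90+, control CD90+ and control CD38+ cells, bars are mean ± SD. Replicates lie close together for MPO, LYZ, CTSG and MS4A3 and far apart in at least 1 group for PRTN3, AZU1, ELANE and CFD, as for AZU1 in CD90+ control replicate 2 at 28.6 CPM.

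Per length, MPO was the most abundant member in CD90+ cells, at 495 ± 26.3 CPM per kb of merged exons in overexpressing and 275 ± 2.76 CPM per kb in control cells, against 209 ± 8.65 CPM per kb in CD38+ controls. LYZ was second in both CD90+ groups, at 176 ± 12.8 CPM per kb in overexpressing and 203 ± 0.889 CPM per kb in control cells, and was the most abundant member in CD38+ controls at 921 ± 14.9 CPM per kb. MS4A3 followed, at 91.0 ± 3.82, 11.6 ± 0.697 and 94.0 ± 3.12 CPM per kb in overexpressing CD90+, control CD90+ and control CD38+ cells. In overexpressing cells CTSG at 62.4 ± 1.53 CPM per kb and PRTN3 at 55.9 ± 18.5 CPM per kb came next and did not differ beyond their spread, as did AZU1 (10.9 ± 4.18 CPM per kb) and CFD (8.87 ± 0.95 CPM per kb). ELANE, which encodes neutrophil elastase, was the lowest member in both CD90+ groups, at 0.284 ± 0.108 CPM per kb in overexpressing and 0.224 ± 0.0458 CPM per kb in control cells, and stood at 1.10 ± 0.904 CPM per kb in CD38+ controls. In those CD38+ controls SERPINB10 was lower still, at 0.591 ± 0.0785 CPM per kb, within the spread of ELANE. PRTN3 and ELANE, neighbours for proteases of the same family, thus stood far apart in counted reads per length in every group. Both had unequal replicates in CD38+ controls. How reads of the cluster genes were assigned is not given in the sources used here, and its part in these levels was not tested.

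Libraries labelled as replicates stood apart at the chromosome 19 genes. The coefficient of variation (CV, the SD as a percentage of the mean) of AZU1 in CD90+ controls was 122%, with the highest library 8.83 times the lowest, against a median CV of 3.96% over 13435 tested genes of at least 1 CPM in that group. PRTN3 had a CV of 72.0% and CFD of 77.8% in CD38+ controls, where the median over 12484 genes was 4.65%, and 99.7% and 99.8% of genes had a lower CV than these. ELANE had a CV of 81.8% in the same cells, its highest library 18.95 times its lowest. In overexpressing cells the CV was 33.0% for PRTN3 and 38.3% for AZU1, above 98.2% and 98.7% of 12575 genes whose median was 4.96%. The members on other chromosomes had a CV of at most 16.4% (SERPINB10 in CD90+ controls), and those of MPO, LYZ, CTSG and MS4A3 ran from 0.437% to 7.31%. Which library was high differed between neighbours: in CD90+ controls AZU1 and CFD were highest in replicate 2 while PRTN3 was nearly level, and in CD38+ controls PRTN3 and CFD were highest in replicate 1 and ELANE in replicate 2.

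PTBP1, PLPPR3, MED16 and R3HDM4, which flank the cluster, did not share this spread. PTBP1 and PLPPR3, upstream of AZU1, had CVs of 0.730% to 3.02% and 3.38% to 7.24% over the groups, and MED16 and R3HDM4, downstream of CFD, 0.672% to 5.64% and 0.575% to 2.28%. KISS1R, past R3HDM4, had few reads, at means of 0.0797, 0.218 and 0.550 CPM in overexpressing CD90+, control CD90+ and control CD38+ cells. Its CVs there were 35.0%, 73.8% and 47.6%. The longest transcripts of the 4 cluster genes are rich in G and C, at 63.4% for AZU1, 66.4% for PRTN3, 66.8% for ELANE and 65.4% for CFD, against 58.5% for MPO, 57.2% for CTSG, 41.5% for LYZ, 40.8% for MS4A3 and 38.6% for SERPINB10. The part of base composition in the spread was not tested. Test results on the cluster genes that rest on 1 library are given with and without it.

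**Figure D2:**
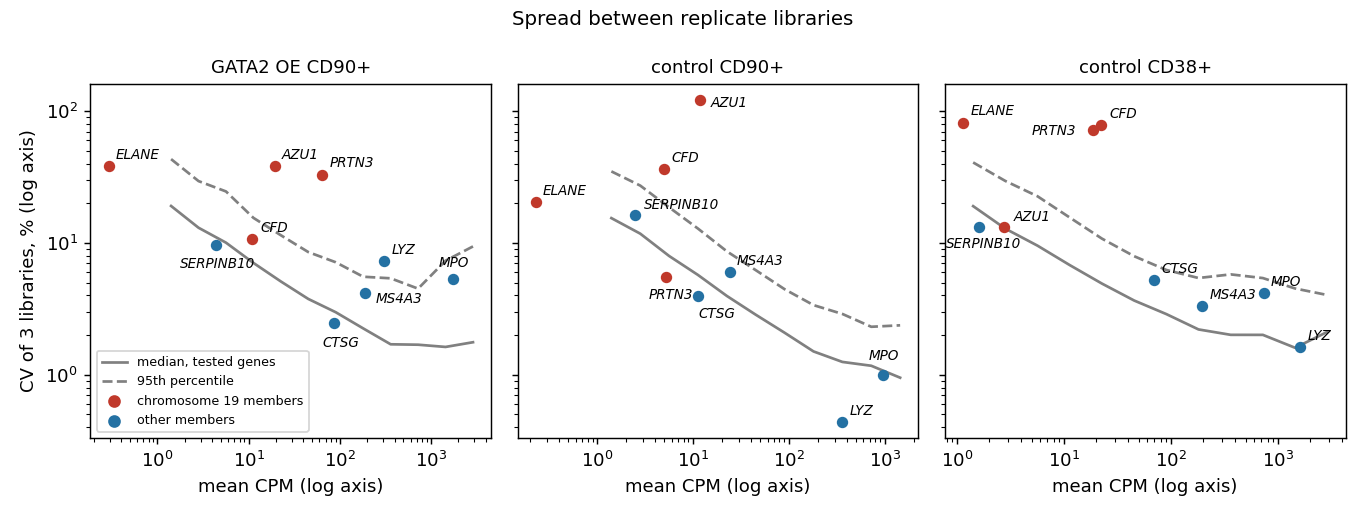
CV of the 3 replicate libraries (percent, log axis) against mean level (CPM, log axis) for the 9 primary granule genes in GATA2 overexpression CD90+, control CD90+ and control CD38+ cells, with chromosome 19 members in red and the others in blue. The solid and dashed lines are the median and 95th percentile of CV over tested genes of like level. AZU1 at 122% in CD90+ controls and ELANE, CFD and PRTN3 at 81.8%, 77.8% and 72.0% in CD38+ controls lie far above the dashed line.

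GATA2 overexpression CD90+ cells were compared with CD90+ controls to see how primary granule genes differ when GATA2 is raised in cells of this surface marker. Of the 9 members, MPO, SERPINB10, CTSG, MS4A3, PRTN3 and CFD were higher, LYZ was lower, and AZU1 and ELANE did not pass the test (edgeR's quasi-likelihood test, Benjamini-Hochberg adjusted p under 0.05 over 16232 genes). The background of this comparison is broad, since 77.6% of all tested genes were called, 38.0% higher and 39.6% lower. The 7 members called are thus a share near the background, while 6 were higher and 1 lower. With library size alone as the scaling, 35.5% in place of 49.0% of all calls were higher and the median of all genes moved by -0.25 on the log2 scale. The members' median log2 fold change was 0.85, against -0.04 over all tested genes. Libraries of the groups did not overlap for 7 of the 9 members and for 80.4% of tested genes (39.3% higher and 41.1% lower).

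Control CD90+ and control CD38+ cells were compared to set the cells of the CD90+ and the CD38+ cells side by side. All 9 members were called, AZU1, MPO and SERPINB10 higher and LYZ, CTSG, MS4A3, PRTN3, ELANE and CFD lower in CD90+ controls, in a comparison that called 80.4% of all tested genes, 41.1% higher and 39.3% lower. Without CD90+ control replicate 2, AZU1 was not called and the count was 8. The share of all calls that were higher was 51.2%, and 71.2% with library size alone, which moved the median of all genes by 0.41. The members' median log2 fold change was -2.13, against 0.03 over all tested genes, and the libraries of 8 members did not overlap, against 82.8% of tested genes (42.5% higher and 40.4% lower).

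GATA2 overexpression CD90+ cells differ from CD38+ controls in both genotype and surface marker, so these cannot be told apart in that comparison. There 5 members were higher (MPO, SERPINB10, CTSG, PRTN3 and AZU1), 3 were lower (LYZ, ELANE and CFD) and MS4A3 was not called, where 83.2% of all tested genes were called, 43.3% higher and 39.9% lower. The count was 7 without CD38+ control replicate 1 (CFD lost) or replicate 2 (ELANE lost). The members' median log2 fold change was 0.29, against 0.07 over all tested genes, and the libraries of 6 members did not overlap, against 83.0% of tested genes (42.9% higher and 40.0% lower). The comparisons share groups, so their results are not independent of each other.

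**Figure D3:**
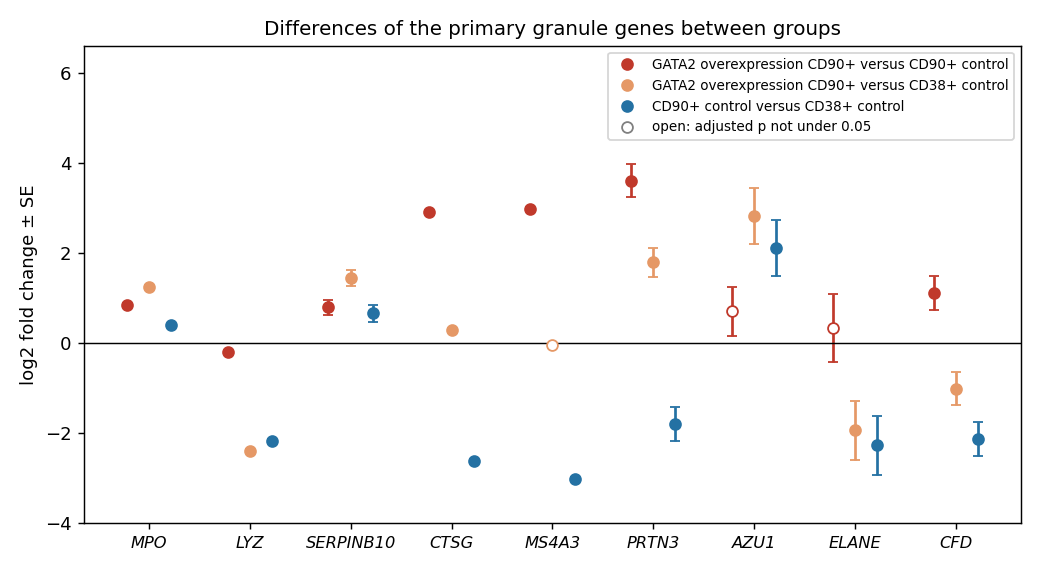
Log2 fold change of each primary granule gene with its standard error, for GATA2 overexpression CD90+ against control CD90+ cells (red), GATA2 overexpression CD90+ against control CD38+ cells (orange) and control CD90+ against control CD38+ cells (blue), from edgeR's fit over 3 libraries per group; open points did not pass an adjusted p of 0.05, and error bars smaller than a point are hidden. CTSG, MS4A3 and PRTN3 lie near 3 or above in red, at 2.91, 2.97 and 3.60, and below 0 in blue.

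MPO, the peroxidase that gives the granule its chlorinating activity, stood at 1846, 1664 and 1728 CPM in the overexpressing CD90+ libraries, at 966, 981 and 963 CPM in the CD90+ controls and at 705, 739.9 and 766 CPM in the CD38+ controls (replicates 1, 2 and 3). The 3 groups did not overlap, and every overexpressing library lay above every control library. MPO was 1.80-fold higher in overexpressing than in control CD90+ cells (log2 fold change 0.85, SE 0.0351, adjusted p = 5.98e-13, edgeR's quasi-likelihood test, adjusted by Benjamini-Hochberg, as in all tests that follow). It was 1.32-fold higher in CD90+ control than in CD38+ controls (edgeR adjusted p = 1.68e-08) and 2.37-fold higher in overexpressing CD90+ than in CD38+ controls (edgeR adjusted p = 1.97e-15). MPO kept its direction and its call under every setting tried.

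SERPINB10, a serpin of blood cells also called bomapin that acts inside the cell, kept the order of MPO at a level far lower. It stood at 4.70, 4.48 and 3.89 CPM in overexpressing CD90+ libraries, at 2.49, 2.94 and 2.11 CPM in CD90+ controls and at 1.65, 1.36 and 1.78 CPM in CD38+ controls. The groups did not overlap. It was 1.73-fold higher in overexpressing than in control CD90+ cells (edgeR adjusted p = 0.000564), 1.58-fold higher in CD90+ control than in CD38+ controls (edgeR adjusted p = 0.00388) and 2.72-fold higher in overexpressing CD90+ than in CD38+ controls (edgeR adjusted p = 1.44e-06). SERPINB2, the inhibitor of urokinase whose gene overlaps it, took the opposite order, at 2.03 ± 0.338, 4.25 ± 0.0855 and 97.4 ± 2.97 CPM in overexpressing CD90+, control CD90+ and control CD38+ cells. MPO and SERPINB10 had a Pearson r of 0.96 over the 9 libraries in log2 level, a description of points that share libraries and groups.

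CTSG encodes cathepsin G, a serine protease with chymotrypsin-like cutting. It stood at 87.9, 83.7 and 85.5 CPM in overexpressing CD90+ libraries, at 11.9, 10.99 and 11.3 CPM in CD90+ controls and at 70.0, 73.8 and 66.4 CPM in CD38+ controls. CD90+ controls were low and the other groups were high, with no overlap between any groups. CTSG was 7.52-fold higher in overexpressing than in control CD90+ cells (log2 fold change 2.91, SE 0.0503, edgeR adjusted p = 7.85e-18) and 6.15-fold lower in CD90+ control than in CD38+ controls (edgeR adjusted p = 1.59e-17). The difference of overexpressing CD90+ from CD38+ controls was small, 1.22-fold higher, and passed the test (edgeR adjusted p = 1.12e-05).

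MS4A3, a membrane protein that marks granulocyte-monocyte progenitors and their early progeny and restrains the cell cycle, moved with CTSG. It stood at 198, 192 and 182 CPM in overexpressing CD90+ libraries, at 25.98, 23.5 and 23.4 CPM in CD90+ controls and at 202, 200 and 189 CPM in CD38+ controls. Libraries of overexpressing CD90+ and CD38+ controls overlapped, and those of CD90+ controls lay apart from both. MS4A3 was 7.85-fold higher in overexpressing than in control CD90+ cells (edgeR adjusted p = 1.16e-18) and 8.10-fold lower in CD90+ control than in CD38+ controls (edgeR adjusted p = 3.96e-19). Between overexpressing CD90+ and CD38+ controls the log2 fold change was -0.05 and did not pass (edgeR adjusted p = 0.266), and it was 0.12 with library size alone (edgeR adjusted p = 0.00796), so no direction is given. CTSG and MS4A3 had a Pearson r of 0.99 over the 9 libraries, as a description.

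PRTN3 encodes proteinase 3, the autoantigen of granulomatosis with polyangiitis. It stood at 67.6, 41.4 and 83.3 CPM in overexpressing CD90+ libraries, at 5.62, 5.13 and 5.09 CPM in CD90+ controls and at 33.6, 8.10 and 13.9 CPM in CD38+ controls. The groups did not overlap, though the highest CD38+ control library (replicate 1) came near the lowest overexpressing library (replicate 2). PRTN3 had the largest fold of the members between overexpressing and control CD90+ cells, 12.1-fold higher (log2 fold change 3.60, SE 0.365, edgeR adjusted p = 1.05e-07), and was called in every setting. It was 3.50-fold lower in CD90+ control than in CD38+ controls (log2 fold change -1.81, edgeR adjusted p = 0.000326), and without CD38+ control replicate 1 the log2 fold change was -1.07 (edgeR adjusted p = 0.00150). Overexpressing CD90+ cells were 3.46-fold higher than CD38+ controls (log2 fold change 1.79, edgeR adjusted p = 8.26e-05), with a log2 fold change of 2.54 without that replicate (edgeR adjusted p = 5.40e-08).

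AZU1, azurocidin, stood at 27.9, 16.5 and 13.9 CPM in overexpressing CD90+ libraries, at 3.81, 28.6 and 3.24 CPM in CD90+ controls and at 3.19, 2.62 and 2.504 CPM in CD38+ controls. CD90+ control replicate 2 had 1578 counts, against 194 and 161 in its other replicates, and lay above every overexpressing library. With it, the difference of overexpressing from control CD90+ cells did not pass (log2 fold change 0.70, SE 0.538, edgeR adjusted p = 0.243), and without it AZU1 was higher (log2 fold change 2.46, edgeR adjusted p = 1.06e-07). The difference of CD90+ control from CD38+ controls turned on the same library, with a log2 fold change of 2.11 with it (edgeR adjusted p = 0.00511) and of 0.35 without it (edgeR adjusted p = 0.212). Overexpressing CD90+ cells were 7.02-fold higher than CD38+ controls (edgeR adjusted p = 0.000528), with no overlap.

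ELANE, whose mutations cause cyclic and severe congenital neutropenia, had few reads. Its counts were 11, 7 and 15 in overexpressing CD90+ libraries, 14, 13 and 9 in CD90+ controls and 53, 71 and 4 in CD38+ controls, or 0.292 ± 0.111, 0.231 ± 0.0471 and 1.14 ± 0.930 CPM. Both CD90+ groups overlapped, and CD38+ control replicate 3 lay below every other library while its other replicates lay above them all. The difference of overexpressing from control CD90+ cells did not pass (log2 fold change 0.33, SE 0.747, edgeR adjusted p = 0.692), and at this depth a small difference was not detectable. ELANE was 4.84-fold lower in CD90+ control than in CD38+ controls (edgeR adjusted p = 0.00418) and 3.84-fold lower in overexpressing CD90+ than in CD38+ controls (edgeR adjusted p = 0.0122), with overlapping libraries in both. Without CD38+ control replicate 2 the log2 fold change was -1.69 (edgeR adjusted p = 0.0423) in place of -2.28 for CD90+ controls, and -1.35 in place of -1.94 for overexpressing cells, where the call was lost (edgeR adjusted p = 0.0990). With limma voom neither comparison passed.

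CFD encodes complement factor D, the protease that cleaves factor B in the alternative pathway. It stood at 12.2, 10.4 and 10.003 CPM in overexpressing CD90+ libraries, at 3.85, 7.07 and 4.03 CPM in CD90+ controls and at 41.6, 13.98 and 10.3 CPM in CD38+ controls. CD38+ control replicate 1 stood far above its other replicates, which overlapped the overexpressing libraries. CFD was 2.17-fold higher in overexpressing than in control CD90+ cells (log2 fold change 1.12, SE 0.382, edgeR adjusted p = 0.0140), which did not hold without CD90+ control replicate 1 (log2 fold change 0.96, edgeR adjusted p = 0.0592) or replicate 3 (0.99, edgeR adjusted p = 0.0579), or with DESeq2 (1.07, adjusted p = 0.0700). Leaving out each library in turn gave log2 fold changes of 0.96 to 1.46, and CFD was called in 14 of 17 settings. It was 4.38-fold lower in CD90+ control than in CD38+ controls (log2 fold change -2.13, edgeR adjusted p = 6.66e-05), and the log2 fold change was -1.28 without CD38+ control replicate 1 (edgeR adjusted p = 4.32e-05). The 2.02-fold lower level in overexpressing CD90+ than in CD38+ controls (edgeR adjusted p = 0.0162) was lost without that replicate (log2 fold change -0.16, edgeR adjusted p = 0.491), with DESeq2 (-1.02, adjusted p = 0.0784) and with limma voom (-0.73, adjusted p = 0.0826).

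LYZ, lysozyme, was the only member called lower in overexpressing than in control CD90+ cells. It stood at 335, 301 and 292 CPM in overexpressing CD90+ libraries, at 358, 358 and 360.4 CPM in CD90+ controls and at 1652, 1621 and 1600.2 CPM in CD38+ controls. The groups did not overlap, with overexpressing cells lowest. LYZ was 1.16-fold lower in overexpressing than in control CD90+ cells (log2 fold change -0.21, edgeR adjusted p = 6.67e-05), the smallest change among the members called there, and 4.53-fold lower in CD90+ control than in CD38+ controls (edgeR adjusted p = 3.89e-18). It was 5.25-fold lower in overexpressing CD90+ than in CD38+ controls (edgeR adjusted p = 7.71e-19). MPO and LYZ had a Pearson r of -0.79 over the 9 libraries, as a description.

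Markers of macrophages, another source of LYZ, moved in the same direction as LYZ between the CD90+ groups. All 11 tested genes of 12 on that list (CD14, CD163, C1QA and others) were lower in overexpressing than in control CD90+ cells, and their median log2 fold change was -5.20. The summed level of the 12 was 236 to 259 CPM in overexpressing CD90+ libraries, 1972 to 2007 CPM in CD90+ controls and 1744 to 1820 CPM in CD38+ controls. C1QA, a subunit of complement C1q, was at 0.654 ± 0.154 CPM in overexpressing CD90+ cells, 150 ± 2.08 CPM in CD90+ controls and 9.50 ± 0.289 CPM in CD38+ controls. Within the list, C1QC was at 0.390 ± 0.141 CPM and CSF1R at 228 ± 10.3 CPM in the overexpressing cells, where LYZ was at 310 ± 22.6 CPM. The part of macrophages in the level of LYZ was not tested. In CD90+ control against CD38+ controls 5 macrophage markers were higher and 6 lower.

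Markers of mast cells, basophils and eosinophils, which can also hold CTSG mRNA, moved in the direction of CTSG and MS4A3. All 10 tested genes of 11 were higher in overexpressing than in control CD90+ cells (median log2 fold change 2.02), and 7 were lower and 2 higher in CD90+ control than in CD38+ controls. Their sum was 817 to 906 CPM in overexpressing CD90+ libraries, 240 to 246 CPM in CD90+ controls and 5327 to 5554 CPM in CD38+ controls. CLC, the Charcot-Leyden crystal protein of eosinophils and basophils, was at 327 ± 31.2, 76.6 ± 1.97 and 3681 ± 146 CPM in overexpressing CD90+, control CD90+ and control CD38+ cells, and PRG3, an eosinophil granule protein, at 288 ± 17.8, 74.3 ± 0.447 and 2.66 ± 0.167 CPM. CPA3, a mast cell carboxypeptidase, was at 25.0 ± 2.36, 5.02 ± 0.340 and 78.3 ± 1.56 CPM. The tryptase gene TPSB2 was at 2.41 ± 0.0487, 1.57 ± 0.323 and 99.4 ± 1.19 CPM and HDC, which makes histamine, at 42.6 ± 1.31, 31.4 ± 0.504 and 1300.3 ± 18.7 CPM. CMA1, the mast cell chymase, had 0 counts in overexpressing CD90+ cells and CD38+ controls, and too few in CD90+ controls to pass the filter. The part of these cells in the level of CTSG or MS4A3 was not tested.

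CFD is also a gene of fat cells. Of 5 adipocyte markers in the table, 2 passed the filter, and LPL, a lipase, was at 1.04 ± 0.173 CPM in overexpressing CD90+ cells, 22.9 ± 0.747 CPM in CD90+ controls and 2.32 ± 0.442 CPM in CD38+ controls. FABP4, a fatty acid carrier, had 0 counts in overexpressing CD90+ cells and stood at 1.28 ± 0.182 CPM in CD90+ controls and 1.49 ± 0.116 CPM in CD38+ controls. PLIN1, a coat protein of lipid droplets, was at 0.220 ± 0.0520 and 0.0507 ± 0.0189 CPM in overexpressing and control CD90+ cells, with 0 counts in CD38+ controls. CIDEC, another lipid droplet protein, had 0 counts in overexpressing CD90+ cells and was at 0.0782 ± 0.0408 CPM in CD90+ controls and 0.203 ± 0.149 CPM in CD38+ controls. LEP had 2 counts over all 9 libraries. The 5 markers summed to 1.08 to 1.41 CPM in overexpressing CD90+ libraries, 23.9 to 25.0 CPM in CD90+ controls and 3.38 to 4.52 CPM in CD38+ controls. The part of fat cells in the level of CFD was not tested. CD90 also marks mesenchymal cells. The 7 mesenchymal markers, all lower in overexpressing than in control CD90+ cells, summed to 260 to 277, 1085 to 1103 and 13.97 to 15.2 CPM in overexpressing CD90+, control CD90+ and control CD38+ libraries, with POSTN at 0 counts in CD38+ controls.

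Other products of the primary granule and its cargo system moved less evenly. Of 15 tested genes, 9 were higher, 5 lower and 1 not called in overexpressing against control CD90+ cells (median log2 fold change 0.22). PRSS57, a further serine protease of the same granule (neutrophil serine protease 4), was also low in CD90+ controls, at 166 ± 6.52 CPM in overexpressing CD90+ cells, 38.2 ± 0.467 CPM in CD90+ controls and 217 ± 4.03 CPM in CD38+ controls. It was 4.33-fold higher in overexpressing than in control CD90+ cells (edgeR adjusted p = 2.38e-18) and 5.67-fold lower in CD90+ control than in CD38+ controls (edgeR adjusted p = 1.16e-19). Unlike CTSG, it was lower in overexpressing CD90+ than in CD38+ control cells, 1.31-fold (edgeR adjusted p = 2.13e-09). RNASE2, a granule ribonuclease better known from eosinophils, and CD63, a membrane protein of the granule, were also higher in overexpressing than in control CD90+ cells, 1.997-fold and 1.56-fold. In CD90+ control against CD38+ controls 5 were higher and 10 lower. The lower ones included RAB27A and UNC13D of the release machinery, 9.06-fold and 3.95-fold lower. The 5 higher, named after their values were seen, were BPI (10.6-fold), RNASE3 (1.64-fold) and the defensins DEFA1, DEFA3 and DEFA4. BPI was among the 5 lower in overexpressing than in control CD90+ cells, 2.31-fold, while RNASE3 was 2.72-fold higher there.

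The genes that process and pack the serine proteases, singled out after their values were seen, differed from each other between the CD90+ groups. CTSC, which activates the proteases by removing a dipeptide, was at 461 ± 16.1 CPM in overexpressing CD90+ cells, 396 ± 5.23 CPM in CD90+ controls and 906 ± 9.15 CPM in CD38+ controls. It was 1.16-fold higher in overexpressing than in control CD90+ cells (edgeR adjusted p = 8.11e-07) and 2.28-fold lower in CD90+ control than in CD38+ control cells (edgeR adjusted p = 8.99e-17), the directions of CTSG and PRTN3 with smaller folds. SRGN, the proteoglycan core on which the proteases are stored, was lower in overexpressing CD90+ cells, at 405 ± 44.3 CPM, than in CD90+ controls at 606 ± 2.28 CPM, and was at 3313 ± 150 CPM in CD38+ controls. Defensins, also chosen after their values were seen, split: DEFA4 was at 8.91 ± 0.704 and 5.25 ± 0.484 CPM in overexpressing and control CD90+ cells and DEFA3 at 1.45 ± 0.147 and 4.45 ± 0.751 CPM. DEFA3 is uncertain, since DEFA1 is a near-identical copy and the handling of reads that map to both is not stated. In CD38+ controls DEFA4 was at 0.0167 ± 0.0289 CPM and DEFA3 at 0.0267 ± 0.0463 CPM.

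**Figure D4:**
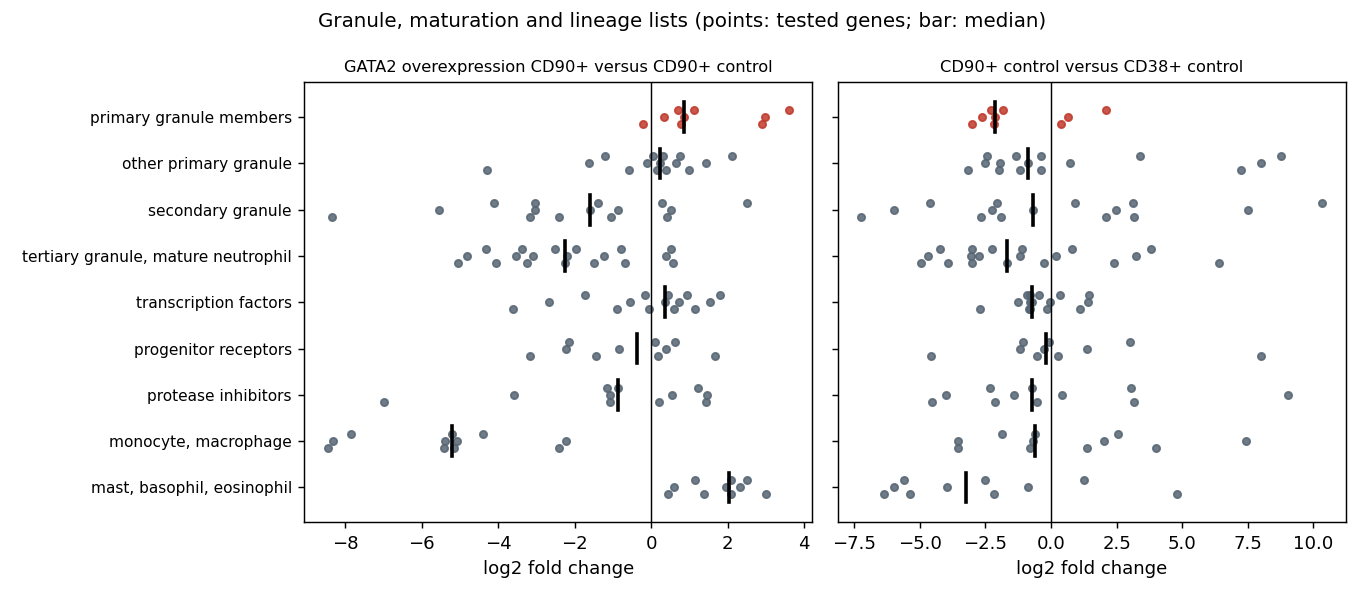
Log2 fold change of each tested gene of the primary granule members (red) and of other gene lists (grey), for GATA2 overexpression CD90+ against control CD90+ cells (left) and control CD90+ against control CD38+ cells (right); bars are medians. On the left the members' median is 0.85, and those of tertiary granule and mature neutrophil genes and of macrophage genes are -2.25 and -5.20. On the right the members' median is -2.13.

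Later neutrophil granules moved against the primary granule members between the CD90+ groups. Of 15 tested secondary granule genes, 3 were higher and 11 lower in overexpressing than in control CD90+ cells (median log2 fold change -1.59), and of 19 tertiary granule and mature neutrophil genes 2 were higher and 16 lower (median -2.25). MMP9, gelatinase B of the tertiary granule, was at 4.07 ± 0.0790 CPM in overexpressing CD90+ cells, 114 ± 2.83 CPM in CD90+ controls and 136 ± 6.48 CPM in CD38+ controls. FPR1, the receptor for formylated peptides, was at 2.69 ± 0.244, 53.5 ± 2.14 and 437 ± 8.15 CPM, and S100A9, a subunit of calprotectin, at 84.3 ± 1.97, 327 ± 10.2 and 2645 ± 37.8 CPM. The 2 that were higher in overexpressing cells were the G-CSF receptor CSF3R, 1.31-fold, and TNFRSF10C, 1.43-fold. CYBB, the catalytic subunit of the phagocyte oxidase, was 17.3-fold lower. Several of these genes are shared with monocytes, whose markers were lower as well.

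Defining secondary granule markers, named after their values were seen, were low and uneven. LTF (lactoferrin) was at 0.221 ± 0.0838 CPM in overexpressing CD90+, 2.01 ± 0.263 CPM in control CD90+ and 0.356 ± 0.274 CPM in control CD38+ cells, and LCN2 (a protein that binds bacterial siderophores) at 6.39 ± 0.403, 4.47 ± 0.782 and 0.517 ± 0.229 CPM. CAMP, the cathelicidin precursor, was at 0.159 ± 0.0559, 0.337 ± 0.0928 and 21.1 ± 0.762 CPM. MMP8 and CHIT1 had 0 counts in overexpressing CD90+ cells, and CEACAM8, PGLYRP1 and CRISP3 had 0 counts in CD38+ controls. In CD90+ control against CD38+ controls 7 secondary granule genes were higher and 8 lower, and 5 tertiary granule and mature neutrophil genes were higher and 13 lower. In overexpressing CD90+ against CD38+ controls the counts were 4 higher and 8 lower, and 3 higher and 15 lower.

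Transcription factors of granulocyte development split in the comparison of overexpressing with control CD90+ cells, with 8 higher, 6 lower and 1 not called of 15 (median log2 fold change 0.37). MYB, a factor of progenitors, was at 238 ± 4.77 CPM in overexpressing CD90+ cells, 67.8 ± 2.15 CPM in CD90+ controls and 53.8 ± 1.23 CPM in CD38+ controls, the order of MPO. CEBPE, the factor of the promyelocyte to myelocyte step, was at 10.7 ± 1.31, 3.71 ± 0.331 and 24.2 ± 1.45 CPM, low in CD90+ controls as were CTSG and MS4A3. IRF8 and KLF4, factors of monocyte development, were 12.1-fold and 6.35-fold lower in overexpressing than in control CD90+ cells. GFI1, a repressor needed for neutrophil development, and CEBPA, the entry factor of the lineage, were named after their values were seen: GFI1 was at 46.2 ± 2.61, 20.7 ± 0.904 and 49.6 ± 3.77 CPM and CEBPA at 69.9 ± 4.85, 42.4 ± 1.19 and 79.1 ± 2.51 CPM in overexpressing CD90+, control CD90+ and control CD38+ cells. In CD90+ control against CD38+ controls 4 of the 15 were higher and 10 lower.

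Among 11 tested inhibitors of proteases, 4 were higher and 6 lower in overexpressing than in control CD90+ cells. SERPINB1, which inactivates elastase, proteinase 3 and cathepsin G inside the neutrophil, was also low in CD90+ controls, at 379.8 ± 3.12 CPM in overexpressing CD90+ cells, 141 ± 1.02 CPM in CD90+ controls and 370.1 ± 7.65 CPM in CD38+ controls. SERPINB6, an intracellular inhibitor of cathepsin G, was at 370.1 ± 7.24, 135 ± 1.38 and 193 ± 7.46 CPM. A2M, a secreted inhibitor of many proteases, was 126-fold lower in overexpressing than in control CD90+ cells. Of 8 tested alternative complement genes, the pathway of CFD, 3 were higher and 5 lower in overexpressing than in control CD90+ cells, with C3 5.13-fold lower and properdin (CFP) 1.69-fold higher, while 1 was higher and 7 lower in CD90+ control than in CD38+ controls. Factor B (CFB), the substrate of CFD, did not pass the filter, at 0 counts in overexpressing CD90+ cells.

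Of 10 receptors of myeloid progenitors, 5 were higher and 5 lower in overexpressing than in control CD90+ cells, against 38.0% and 39.6% of all tested genes. The 5 lower included CSF2RA and IL3RA, whose CVs in the CD90+ groups were 60.1% to 88.0%. The IL3RA libraries of these groups overlapped. CD34, the progenitor antigen, was 3.18-fold higher and CSF1R, the receptor of the macrophage growth factor, 4.69-fold lower. Of 12 genes of severe congenital neutropenia and of protein folding and transport, 7 were higher and 5 lower, with G6PC3 2.11-fold and JAGN1 1.77-fold higher. In CD90+ control against CD38+ controls these lists had 4 higher and 4 lower of the 10, and 3 higher and 7 lower of the 12.

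The neighbours of the chromosome 19 cluster were read for the levels around it. PLPPR3, next to AZU1 on the upstream side, was 3.14-fold higher in overexpressing than in control CD90+ cells, at 34.9 ± 2.52 against 11.1 ± 0.755 CPM (edgeR adjusted p = 1.88e-12), and stood at 10.3 ± 0.349 CPM in CD38+ controls. R3HDM4, downstream of CFD, was 1.61-fold higher, at 121 ± 2.75 against 75.0 ± 0.431 CPM (edgeR adjusted p = 7.95e-13). MED16 and PTBP1 were higher by 1.08-fold and 1.25-fold. The 6 genes whose log2 level was most like the summed level of AZU1, PRTN3 and ELANE over the 9 libraries, among 11360 genes, were WDR53, HIST2H2AC, ZSWIM1, STK16, MED18 and RAB11B-AS1, with Pearson r of 0.92 to 0.95. RAB11B-AS1 is antisense to another gene, and whether strand was used in counting is not given in the sources used here. PRTN3, part of the sum, ranked 48 with r = 0.88, and AZU1, another part of it, ranked 1463 with r = 0.77. In CD90+ control replicate 2 AZU1 made up most of the sum, at 28.6 CPM against 3.81 and 3.24 CPM in replicates 1 and 3. The ranking was not repeated without that library. Pearson r takes no account of the size of a change. WDR53 was at 20.7, 13.8 and 14.3 CPM and PRTN3 at 64.1, 5.28 and 18.5 CPM in overexpressing CD90+, control CD90+ and control CD38+ cells. The 9 libraries share groups, so these values describe likeness only.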

How the data were processed

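RNA of 9 libraries was sequenced strand-specifically with paired reads of 150 nucleotides, per the labels' protocols. The deposited values are the authors' counts, given as integers for each gene symbol and made with HISAT2 and featureCounts on hg38 per the submitters' processing notes; the sources used here do not give versions, annotation, strand settings or the handling of reads that map to several places. Libraries were grouped by genotype and surface marker.

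Counts were tested with edgeR 4.0.16 in R 4.3.3 (quasi-likelihood, TMM, a model of group means over 9 libraries, no block), on the 16232 genes that pass filterByExpr at a minimum count of 10 and a total of 15, with Benjamini-Hochberg adjustment over all of them and calls at an adjusted p under 0.05. The common dispersion was 0.00452 and TMM factors averaged 0.980 in overexpressing CD90+, 1.16 in control CD90+ and 0.876 in control CD38+ libraries, and fold changes move with this scaling. The floor of 3 counts over a group covers counting error alone, as reads were not tied to molecules by identifiers. CPM per kb used merged GENCODE 29 exons. The procedure was tested on simulated counts. Likeness used log2(CPM + 0.5) over tested genes with a mean of at least 5 CPM in their highest group.

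The members and 13 further lists (163 genes, 157 in the table) were chosen with earlier results of these data known. Named genes were the members, GATA2, THY1 and CD38, up to 3 genes per list with the lowest adjusted p in a comparison, genes that moved against a list where at most 2 did, the 6 most similar genes and the neighbours of members. Alternatives were RLE factors, library size only, other filters, DESeq2 1.42.0, limma 3.58.1 voom, separate fits of the 2 groups compared, a block for replicate number and leaving out each library.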

Additional observations from a re-analysis of the deposited data

How the results depend on the processing

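Of 456 values for 27 results on members under 17 settings, 442 kept their direction and their side of the threshold, and 20 of the 27 results did so under all settings. MS4A3 in overexpressing CD90+ against CD38+ controls changed sign with library size only, to a log2 fold change of 0.12 (edgeR adjusted p = 0.00796); that scaling moves the median of all genes by 0.16 in this comparison. With limma voom, 1 member in place of 3 was lower there, as CFD (log2 fold change -0.73, adjusted p = 0.0826) and ELANE (-1.17, adjusted p = 0.227) lost their calls. In CD90+ control against CD38+ controls AZU1 (1.42, adjusted p = 0.132) and ELANE (-1.46, adjusted p = 0.126) lost theirs with voom, and AZU1 gained one in overexpressing against control CD90+ cells (1.33, adjusted p = 0.0198). With DESeq2, CFD was not called in overexpressing against control CD90+ cells (1.07, adjusted p = 0.0700) or against CD38+ controls (-1.02, adjusted p = 0.0784). The cause was not tested. ELANE did not pass a filter of at least 1 CPM in 3 libraries.

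Leaving out each library in turn gave 6 to 8 members called in overexpressing against control CD90+ cells, 8 to 9 in CD90+ control against CD38+ controls and 7 to 8 in overexpressing CD90+ against CD38+ controls. The main fits of these comparisons called 77.6%, 80.4% and 83.2% of all tested genes, so high counts of members called are not particular to the members. THY1 was not lower in overexpressing than in control CD90+ cells without overexpressing replicate 2 (-0.47, edgeR adjusted p = 0.0544) or CD90+ control replicate 1 (-0.42, edgeR adjusted p = 0.0800). With a replicate block the counts of members called were 7, 9 and 8, as without it, and all genes called were 12384, 12889 and 13347 in the 3 comparisons. Deviations of libraries with the same replicate number had a correlation of -0.0516 to 0.0153, and those with different numbers of -0.0365 to 0.0415. Not every library correlated best with its own number. All these values are small, so they cannot tell whether libraries of the same number share a culture or a run. Depth limits ELANE, SERPINB10 and the defensins.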

Other observations

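The spread between replicates of the chromosome 19 cluster has company elsewhere in the genome, in regions chosen after the values were seen. A CV above 30% in at least 1 group, at a mean of at least 3 CPM there, was found for 184 of 12255 genes (1.5%). It was found for all 3 of the measured genes from AZU1 to CFD (ELANE was below 3 CPM), for 39 of 71 genes (54.9%) on chromosome 6 between 28000000 and 34000000, which holds the HLA genes, and for 10 of 11 genes (90.9%) on the first 2800000 bases of chromosome X, which hold the pseudoautosomal region. Receptors of myeloid growth factors lie in that last region: IL3RA had CVs of 88.0%, 74.5% and 67.3%, and CSF2RA of 77.9%, 60.1% and 53.0%, in overexpressing CD90+, control CD90+ and control CD38+ cells. The cause of this spread was not tested.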
